A study of Mus musculus with 8 samples.

Results

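The genes described here act at the last membrane step of ER-associated degradation (ERAD). They were Vcp, which encodes the ATPase p97, its cofactor genes Nploc4, Faf2 and Ubxn4, the ER ubiquitin ligase genes Rnf5 and Rnf139, and the ubiquitin-conjugating enzyme genes Ube2j1, Ube2j2 and Ube2g2. A probe was taken when the deposited annotation of the arrays gave it 1 of these 9 symbols. The 9 genes had 18 of the 56605 gene probes on the array, and they stood among 26894 gene symbols in all. After the filter on dim probes, 17 of the 18 probes remained, with at least 1 for each gene, among 40001 probes of 19922 genes.

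The dentate gyrus of the hippocampus was profiled on 8 single-colour Agilent arrays, 1 array per sample and 2 samples in each of 4 groups. The Derlin-1 control group was Derlin-1flox/flox and the Derlin-2 control group was Derlin-2flox/flox. Both kinds of KO mice came from crosses of the same floxed alleles to mice in which the nestin promoter drives Cre recombinase. All mice were labelled as male C57BL/6 and were killed at 8 to 9 weeks of age, so the groups of a line differed in the Cre transgene and the allele it recombines. Nestin-driven Cre acts mainly in the neural lineage, and microglia and endothelium would largely keep the floxed gene. Recombination in those cells was not measured here. The labels name no Cre in the controls, and a group with Cre alone was not analysed here. The labels do not say whether the 2 samples of a group came from separate mice or pools, so the tests measure the spread between these samples.

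In ERAD, a misfolded protein is drawn from the ER lumen or membrane into the cytosol, tagged with ubiquitin and handed to the proteasome. Ligases embedded in the ER membrane pick the substrate, conjugating enzymes (E2s) supply the ubiquitin, and p97 with the Npl4 and Ufd1 proteins pulls the tagged chain out at the cost of ATP. UBX proteins such as those of Faf2 and Ubxn4 hold p97 at the ER membrane. Derlins are multi-spanning membrane proteins of the same machinery that bind p97. Several ERAD genes, Herpud1 among them, are known targets of the unfolded protein response, whose factors ATF6 and XBP1 can act through the ER stress response element.

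Promoter sequence was shown for 3 genes because the ER stress element is 1 known route from ER stress to this pathway. RefSeq windows of 300 bases, from 250 before to 50 after the start of transcription on GRCm38.p6, were matched by symbol for 6 of the 9 genes and gave 7 windows, Ube2j2 having 2. The motifs searched on both strands were the ER stress response element, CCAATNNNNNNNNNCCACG, the related element ERSE-II, ATTGGNCCACG, and the core CCACG, which is contained in both longer motifs. None of the 7 windows held an exact match to either long motif, while 3 windows, of Vcp, Ube2j1 and Ube2j2, held the core. Among all 32851 windows of that length, 0.119% held the ER stress response element, 0.0365% held ERSE-II and 32.8% held the core. Of 8 ER stress genes used for comparison, 7 had a window, and the full element lay in those of Hspa5, Hsp90b1 and Creld2 and ERSE-II in that of Herpud1. The 250 bases before the start are printed 5′ to 3′ for Vcp and Ube2j1 and, as an example with the full element, for Hspa5, the gene of the ER chaperone BiP. Capitals mark the searched motifs on either strand.
Vcp, chr4:43000508-43000757, minus strand: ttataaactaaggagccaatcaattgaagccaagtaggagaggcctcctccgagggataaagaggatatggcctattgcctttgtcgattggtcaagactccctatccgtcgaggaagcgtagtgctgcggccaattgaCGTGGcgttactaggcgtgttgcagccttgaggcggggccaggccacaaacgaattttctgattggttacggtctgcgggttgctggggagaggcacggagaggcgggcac
Ube2j1, chr4:33031130-33031379, plus strand: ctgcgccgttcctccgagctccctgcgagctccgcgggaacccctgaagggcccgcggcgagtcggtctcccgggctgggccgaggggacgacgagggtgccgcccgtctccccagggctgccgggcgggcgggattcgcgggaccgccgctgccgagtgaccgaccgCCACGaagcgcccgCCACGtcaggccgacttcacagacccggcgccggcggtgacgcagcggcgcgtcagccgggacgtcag
Hspa5, chr2:34771840-34772089, plus strand: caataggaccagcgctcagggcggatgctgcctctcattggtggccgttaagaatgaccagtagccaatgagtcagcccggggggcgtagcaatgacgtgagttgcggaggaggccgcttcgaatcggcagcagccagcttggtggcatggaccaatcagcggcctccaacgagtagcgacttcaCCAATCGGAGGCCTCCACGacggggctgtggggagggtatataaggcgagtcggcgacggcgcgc
The Vcp window held 1 core, on the opposite strand, the Ube2j1 window held 2, and the Hspa5 window held 1 full element and no further core. Only exact matches were counted, so copies of an element with changed letters were not sought and are not marked. A match is a description of the letters only. Other elements of the unfolded protein response were not searched for, so their presence or absence in these windows is not given.

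The arrays were alike in the share of probes above background but not in spots flagged as outliers. These numbered 84 to 178 on the Derlin-1 arrays and 278 to 429 on the Derlin-2 arrays. By the scanner software's own flag, 67.6% to 70.8% of probes exceeded background clearly, and 0 spots were saturated. Pearson's r over probes lay between 0.987 and 0.995 within groups and between 0.965 and 0.985 across the lines. Between KO and control arrays of a line it was 0.988 to 0.993, inside the range within groups. The lines lay on different slides, so line and slide cannot be told apart, and on each slide the controls held the first pair of positions and the KO samples the last pair. The brightest Derl1 probe was lower by 0.19 on the log2 scale in Derlin-1 KO (SE 0.10, limma adjusted p = 0.9997), and the brightest Derl2 probe was lower by 0.64 in Derlin-2 KO (SE 0.10, adjusted p = 0.259). Both KO arrays were below both controls in each case. Whether these probes lie in the deleted exons is not given in the sources used here. All 36 marker genes of the tissue check were well above background on all 8 arrays. They included the granule neuron markers Prox1, Calb1, Dsp, C1ql2 and Tdo2 and the CA pyramidal neuron markers Fibcd1, Wfs1, Bok and Mndal. Control means of the granule neuron markers were all lower in the Derlin-2 line than in the Derlin-1 line, for Dsp 10.78 and 11.81. Of the CA markers, Fibcd1 (8.46 and 6.99) and Wfs1 (11.68 and 11.25) were higher there, and Bok (13.59 and 14.26) and Mndal (9.57 and 10.07) lower. Of the 4 choroid plexus markers, Ttr ranged from 7.66 to 11.71 on the log2 scale between arrays and Folr1 from 5.47 to 7.93, while Kl ranged from 9.51 to 9.98 and Aqp1 from 5.59 to 6.16. The means of the 4 newborn neuron markers were all higher in Derlin-2 KO (median 0.46) and all lower in Derlin-1 KO (median −0.11), and those of the 4 microglia markers likewise (medians 0.17 and −0.11). The 4 interneuron markers had higher means in Derlin-1 KO (median 0.18), and 3 of them had lower means in Derlin-2 KO (median −0.05). No marker passed after adjustment, and at an unadjusted p under 0.05 there were 2 of 36 for Derlin-1 (Sst and C1ql2) and 5 for Derlin-2 (Igfbpl1, Eomes, Sox11, Tdo2 and Sst). Of all genes by their brightest probe, 4.24% and 4.76% were under 0.05 in the respective lines. The part of these markers in the results below was not tested. In bulk tissue, fewer cells of a type and less RNA per cell cannot be told apart.

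Levels are given as log2 intensity after quantile normalization, and for each gene the probe with the highest mean intensity is described first. A difference is the KO mean minus the control mean on this log2 scale, with the SE and 95% interval of a limma fit over all 8 arrays. A result passed when its Benjamini-Hochberg adjusted p over all probes was under 0.05. By that test 0 of the 17 member probes passed for Derlin-1, where 0% of 39981 probes passed. For Derlin-2, 0 of the 16 member probes with a measured difference passed, against 0.0452% of 39812 probes and 0.0454% of genes by their brightest probe. At an unadjusted p under 0.05, the member count was 0 in both lines, where 4.72% and 5.55% of all probes passed. A count of 0 among so few probes is near that background, so the intervals say more than the counts.

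Vcp encodes p97, the hexameric ATPase that extracts ubiquitinated proteins from the membrane. Its brightest probe (A_51_P109766) read 14.24 and 14.35 in the Derlin-1 controls and 14.14 and 14.21 in Derlin-1 KO. The corresponding values were 14.34 and 14.39 in the Derlin-2 controls and 14.33 and 14.26 in Derlin-2 KO. In both lines both KO arrays lay below both controls, by a margin smaller than the gap between the 2 control arrays. The difference was −0.12 in the Derlin-1 line (SE 0.10, 95% interval −0.36 to 0.12, adjusted p = 0.9997). It was −0.07 in the Derlin-2 line (SE 0.10, interval −0.31 to 0.17, adjusted p = 0.998). Of all genes, 16.9% had both KO arrays below both controls for Derlin-1 and 13.6% for Derlin-2, and of all probes 16.8% and 13.4%.

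Nploc4 encodes Npl4, which with Ufd1 forms the main substrate-recruiting cofactor of p97. Its brightest probe (A_55_P2164111) read 10.99 and 11.08 in the Derlin-1 controls against 10.93 and 10.998 in KO. The Derlin-2 controls read 11.10 and 11.35 and the KO arrays 11.19 and 11.07. The groups overlapped in both lines, with differences of −0.07 and −0.09 (SE 0.12 each). The Derlin-2 sign rested on control 2, and without it the difference was 0.034.

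Faf2 encodes UBXD8, a hairpin protein of the ER membrane that recruits p97. Its brightest probe (A_55_P2182016) read 10.53 and 10.46 in the Derlin-1 controls, 10.52 and 10.50 in Derlin-1 KO, 10.67 and 10.46 in the Derlin-2 controls and 10.65 and 10.57 in Derlin-2 KO. Neither line separated its groups, and the differences were 0.01 and 0.05 (SE 0.11 each). Ubxn4, whose UBX-domain product also docks p97 on the ER, read 11.91 and 11.80 in the Derlin-1 controls and 11.91 and 11.89 in KO. The Derlin-2 controls read 11.75 and 11.82 and the KO arrays 11.59 and 11.70, below both controls. The Ubxn4 difference of −0.14 in the Derlin-2 line (SE 0.10, interval −0.38 to 0.10, adjusted p = 0.995) was the largest in size among the 9 brightest probes in either line. In the Derlin-1 line it was 0.04 (SE 0.10). Set against each other, the lines differed in this effect by 0.18 (SE 0.14, adjusted p = 0.926).

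The ligases moved as little. Rnf5 encodes a small RING ligase anchored in the ER membrane, and it read 12.50 and 12.38 in the Derlin-1 controls, 12.33 and 12.44 in Derlin-1 KO, 12.47 and 12.30 in the Derlin-2 controls and 12.39 and 12.37 in Derlin-2 KO. Its groups overlapped, and its differences were −0.05 and −0.0066 (SE 0.11 each). Rnf139 encodes TRC8, a multi-spanning ligase also known from sterol-regulated degradation. It read 10.97 and 10.84 in the Derlin-1 controls and 10.85 and 10.83 in KO, which overlapped. It read 11.20 in both Derlin-2 controls and 11.26 and 11.27 in KO. The KO pair was above the control pair there, which held for 19.2% of all genes, with a difference of 0.06 (SE 0.09, interval −0.17 to 0.29, adjusted p = 0.998).

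Among the E2s, Ube2j1 and Ube2j2 encode tail-anchored enzymes of the ER membrane. Ube2j1 (A_55_P1990609) read 10.80 and 10.703 in the Derlin-1 controls, 10.77 and 10.68 in Derlin-1 KO, 11.27 and 11.26 in the Derlin-2 controls and 11.38 and 11.21 in Derlin-2 KO. Its differences were −0.02 and 0.03 (SE 0.11 each), with overlapping groups in both lines. Ube2j2 (A_66_P111437) read 13.97 and 13.76 in the Derlin-1 controls, 13.80 and 13.76 in Derlin-1 KO, 13.89 and 13.82 in the Derlin-2 controls and 13.83 and 13.79 in Derlin-2 KO. Its differences were −0.08 and −0.05 (SE 0.11 each), again with overlap. Ube2g2 encodes a soluble E2 that is brought to the membrane by ligases such as gp78. It read 11.99 and 11.84 in the Derlin-1 controls and 11.82 and 11.80 in KO, both KO arrays being below both controls. The Derlin-2 controls read 11.76 and 11.75 and the KO arrays 11.77 and 11.93, above both controls. The Ube2g2 differences were −0.11 and 0.10 (SE 0.11 each, adjusted p = 0.9997 and 0.998). With an array left out they ran from −0.19 to −0.03 and from 0.02 to 0.18. The effects of the lines were −0.21 apart (SE 0.15, adjusted p = 0.921).

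**Figure D1:**
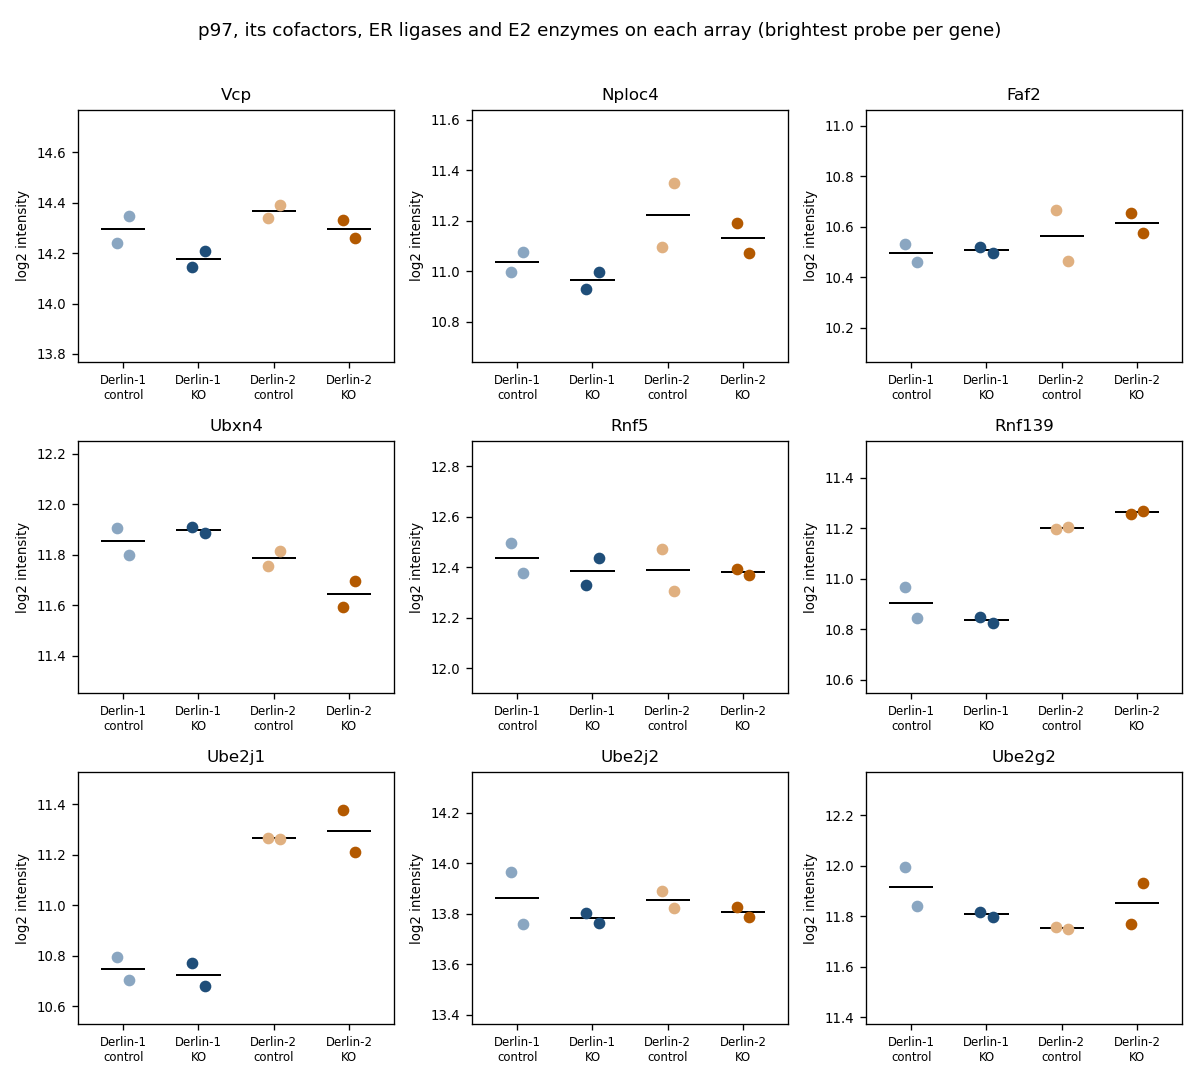
Log2 intensity of the brightest probe of each of the 9 genes on the 8 arrays, by group; points are arrays, bars are group means of 2 arrays, and each panel spans 1 log2 unit around its own values. KO and control points of a line lie close together in each panel, and Rnf139 and Ube2j1 sit higher on all 4 arrays of the Derlin-2 line.

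Over the 9 brightest probes, the differences ran from −0.12 to 0.04 in the Derlin-1 line, with 2 genes higher and 7 lower in KO and a median of −0.07. Over 19909 genes 46.1% were higher and 53.9% lower, and the median was −0.01. With 75th percentile scaling in place of quantile normalization, 11236 of these genes were higher and 8673 lower, and the median was 0.02. In the Derlin-2 line the differences of the 9 genes ran from −0.14 to 0.10, with 4 higher and 5 lower and a median of −0.0066 (0.018 under 75th percentile scaling and 0.013 in the deposited values), against 54.3% of 19814 genes higher, 45.6% lower and a median of 0.02. No 95% interval of a brightest probe reached below −0.37 or above 0.29 in the Derlin-1 line, which is 1.30-fold lower and 1.22-fold higher. For Derlin-2 the limits were −0.39 and 0.36, 1.31-fold lower and 1.29-fold higher. Changes in RNA of 1.5-fold or more, a size that 4.69% and 5.69% of all probes reached in the respective lines, thus lay outside the interval of every gene's brightest probe. Changes within these limits could not be told from the spread of 2 arrays a group. Some dimmer probes had wider intervals that included 1.5-fold. In the Derlin-1 line Faf2 A_55_P2731941 reached 2.36-fold lower and 2.53-fold higher, and Vcp A_52_P120424 1.53-fold lower. The Faf2 width does not measure the Derlin-1 arrays, whose SDs were 0.096 in controls and 0.076 in KO. It comes mainly from the pooled spread of the Derlin-2 controls (SD 1.28), of which control 2 was not well above background. For Derlin-2, Vcp A_65_P04163 reached 1.73-fold lower and Vcp A_52_P120424 1.55-fold higher. The count of samples also sets a floor: an exact two-sided permutation test of 2 against 2 cannot give a p below 0.333.

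**Figure D2:**
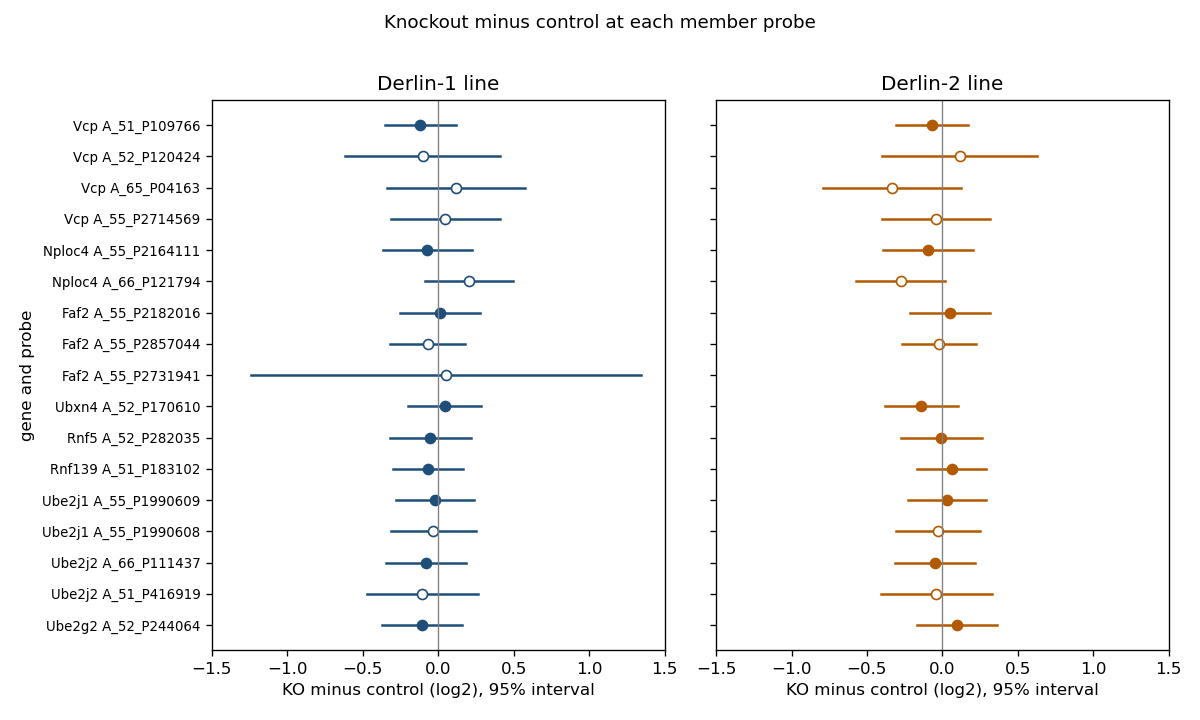
Difference of KO and control in log2 units with its 95% interval for each kept probe, in the Derlin-1 line (left) and the Derlin-2 line (right); filled points are the brightest probe of each gene and open points its other probes. All intervals cross 0. The third Faf2 probe has the widest in the Derlin-1 line, −1.24 to 1.34, a width set mainly by the pooled spread of the Derlin-2 controls. It has no value in the Derlin-2 line, where neither KO array was well above background.

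Where a gene had several probes, the others were dimmer and did not always move with the brightest. Vcp had 4. Its probe A_52_P120424 for the same RefSeq transcript differed by −0.10 and 0.11 in the Derlin-1 and Derlin-2 lines (SE 0.21), and its probe A_55_P2714569, annotated to an Ensembl transcript, by 0.05 and −0.04 (SE 0.15). The probe A_65_P04163, annotated to another Ensembl transcript, read 9.27 and 9.14 in the Derlin-1 controls and 9.42 and 9.23 in KO. It read 9.24 and 8.72 in the Derlin-2 controls and 8.71 and 8.58 in KO. The controls of the Derlin-2 line were thus 0.51 apart, and the difference of −0.33 (SE 0.19, adjusted p = 0.965) became −0.08 without control 1 and −0.59 without control 2.

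The dimmer Nploc4 probe (A_66_P121794), annotated to an Ensembl transcript, read 4.91 and 4.96 in the Derlin-1 controls and 5.12 and 5.15 in KO. It read 5.003 and 4.78 in the Derlin-2 controls and 4.53 and 4.70 in KO. The lowest values flagged well above background were 3.71 to 4.17, depending on the array, so this probe read near the floor. Its KO arrays lay above the controls in the Derlin-1 line, by 0.20 (SE 0.12), which held for 18.8% of all probes, and below them in the Derlin-2 line, by −0.28 (SE 0.12, adjusted p = 0.923). The effects of the lines were 0.48 apart (SE 0.17), with an unadjusted limma p of 0.0303 and an adjusted p of 0.811. It was the only 1 of 16 member probes under 0.05 unadjusted in that comparison, where 5.9% of 39810 probes were under 0.05 and 0.00754% passed after adjustment. The size of both differences changed with the processing. For Derlin-1 it was 0.40 under 75th percentile scaling and 0.38 in the deposited values, each with an unadjusted limma p of 0.0454 (adjusted p = 0.798 and 0.884, and 0.796 to 1 over all other settings). These 2 settings differed by a near-constant shift in each line, so they are not separate checks. For Derlin-2 the difference was −0.04 with normexp background correction. The unadjusted limma p of the main fit was 0.142 for Derlin-1 and 0.0613 for Derlin-2. In a robust fit with a trend these were 0.423 and 0.284. The brighter Nploc4 probe gave −0.07 and −0.09, so the probes of this gene disagreed in the Derlin-1 line.

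**Figure D3:**
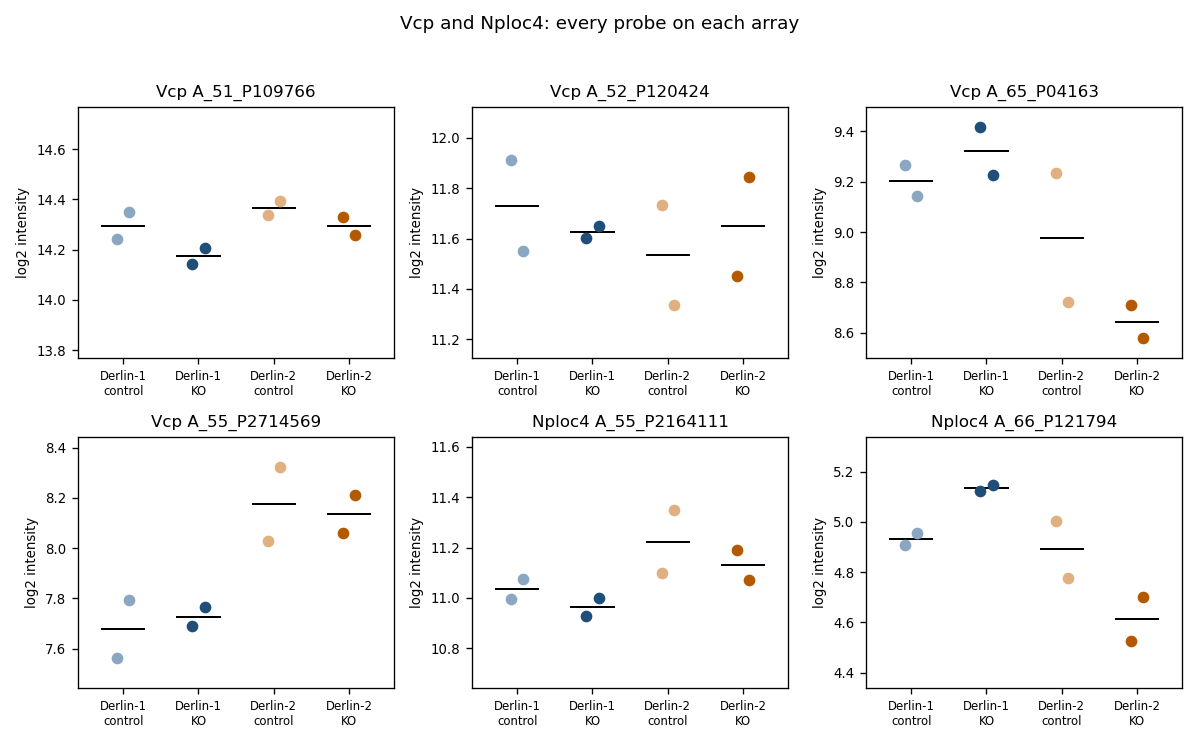
Log2 intensity on the 8 arrays for the 4 Vcp probes and the 2 Nploc4 probes, by group; points are arrays, bars are group means, and each panel spans 1 log2 unit. Among the probes shown, the brightest Vcp probe has the smallest SE in the fit (0.10), though not the closest points in every group. The Nploc4 probe A_66_P121794 has its KO arrays above the controls in the Derlin-1 line and below them in the Derlin-2 line.

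The remaining probes had small differences. Faf2 probe A_55_P2857044 differed by −0.07 and −0.02 (SE 0.10), Ube2j1 probe A_55_P1990608 by −0.03 in both lines (SE 0.11), and Ube2j2 probe A_51_P416919 by −0.11 and −0.04 (SE 0.15). The dim Faf2 probe A_55_P2731941 was well above background on 5 of 8 arrays, all 4 of the Derlin-1 line and 1 Derlin-2 control. Its difference in the Derlin-1 line was 0.05 (SE 0.53, set mainly by the pooled spread of the Derlin-2 controls). The second Ube2g2 probe was well above background on 3 of 8 arrays and on both arrays of no group, and it was left out. Both Ube2j2 probes, the Faf2 probes A_55_P2182016 and A_55_P2731941 and this Ube2g2 probe lay in the last eighth of the array's 384 rows. Without the probes of those rows, 4 of all probes passed in the Derlin-2 line in place of 18.

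The lines themselves differed at 2 of the 9 genes. Rnf139 was higher on all 4 arrays of the Derlin-2 line than on all 4 of the Derlin-1 line, and the control means were 11.20 and 10.91, a difference of 0.30. Ube2j1 was likewise higher on all 4, with control means of 11.27 and 10.75, a difference of 0.52, and its dimmer probe also lay apart, at 7.78 to 7.90 against 7.39 to 7.58. Both genes stood apart in the same direction under 75th percentile scaling, under normexp correction and in the authors' deposited values. The first and last of these differed by a near-constant shift and are not separate checks. The other 7 genes overlapped between the lines, and none was apart with the Derlin-1 line higher. Over 19667 genes, all 4 arrays of the Derlin-2 line lay above the other 4 for 15.7% and below for 19.2%, so 2 of 9 is near the background.

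A wider list of 42 genes of the same pathway was read beside the 9. It held 19 further p97 cofactors, 14 further ER ligases, E2s and their partners, and 9 shuttle factors that carry substrates to the proteasome. All 42 had a measured probe, and 0 passed in either line, adjusted or unadjusted, where 4.24% and 4.76% of all genes were under 0.05 unadjusted by their brightest probe. In the Derlin-1 line 15 were higher and 27 lower (median −0.04, range −0.18 to 0.18). In the Derlin-2 line 28 were higher and 14 lower (median 0.05, range −0.17 to 0.26). Both KO arrays lay above both controls in 8 genes (Derlin-1) and 10 genes (Derlin-2), and below for 7 and 4. The corresponding shares of all genes were 17.2% and 19.2% above and 16.9% and 13.6% below. The cofactors had medians of −0.01 and 0.05 in the Derlin-1 and Derlin-2 lines, the ligases and E2s −0.04 and 0.01, and the shuttles −0.05 and 0.06.

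The 5 genes of this list with the smallest p in the Derlin-1 line were Selenos, Rnf103, Ubxn2b, Faf1 and Ubqln2. Selenos, whose product binds both p97 and the derlins, was 0.18 higher (SE 0.10) and Faf1, a p97 adaptor, 0.15 higher (SE 0.10). Rnf103, an ER ligase, differed by −0.17 (SE 0.09), Ubxn2b, a p97 adaptor, by −0.18 (SE 0.11) and Ubqln2, a proteasome shuttle, by −0.12 (SE 0.09). All had an adjusted p of 0.9997. For Derlin-2 they were Ube2g1, Ubxn8, Ufd1, Rnf121 and Svip. Ube2g1, a paralogue of Ube2g2, was 0.26 higher (SE 0.11, adjusted p = 0.923), and Ufd1, the partner of Npl4, 0.18 higher (SE 0.11, adjusted p = 0.975). Rnf121, a membrane-bound RING ligase, and Svip, a small inhibitor of ERAD that binds p97, were each 0.12 higher (SE 0.09 and 0.10). Ubxn8, a UBX protein of the ER membrane, differed by −0.17 (SE 0.09, adjusted p = 0.965). In each of these cases the KO arrays lay clear of the controls in the direction given. The other line gave both directions. Rnf121 was above both controls on both KO arrays in the Derlin-1 line too, at 0.12, Rnf103 was below in the Derlin-2 line too, at −0.07, and Ubxn8 was below in the Derlin-1 line too, at −0.05. Ufd1 gave 0.05 in the Derlin-1 line, where its groups overlapped. In the opposite direction, Ube2g1 gave −0.06 and Svip −0.04 in the Derlin-1 line, and Selenos gave −0.05, Faf1 −0.07, Ubxn2b 0.06 and Ubqln2 0.07 in the Derlin-2 line. The KO arrays of Faf1, Ubxn2b and Ubqln2 lay clear of the controls there.

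Beside these lists, 8 ER stress genes are given as a scale of what these arrays registered on the same samples. They are targets of the unfolded protein response and were picked with earlier results of these arrays known, so neither their direction nor their size is independent evidence. Their median difference was 0.40 in the Derlin-1 line, where all 8 had both KO arrays above both controls and 4 had an unadjusted p under 0.05. In the Derlin-2 line the median was 0.20, all 8 means were higher, 3 had both KO arrays above both controls and 2 had an unadjusted p under 0.05. Of all genes, 17.2% (Derlin-1) and 19.2% (Derlin-2) had both KO arrays above both controls. An unadjusted limma p under 0.05 was reached by 4.24% and 4.76%. None of the 8 ER stress genes passed after adjustment in either line. Hspa5 read 13.95 and 13.84 in the Derlin-1 controls against 14.58 and 14.52 in KO, a difference of 0.66 (SE 0.12, adjusted p = 0.9997). It read 13.79 and 14.02 in the Derlin-2 controls against 14.36 and 14.41 in KO, a difference of 0.48 (SE 0.12, adjusted p = 0.587). Manf, an ER-resident stress factor, differed by 0.48 and 0.32 (SE 0.10 each). The smallest of the 8 differences in the Derlin-1 line was 0.19, and the highest of the 9 p97 and ligase genes there was 0.04. For Derlin-2 the ranges overlapped, from 0.0047 to 0.48 for the ER stress genes and from −0.14 to 0.10 for the 9. No test was made between the lists.

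**Figure D4:**
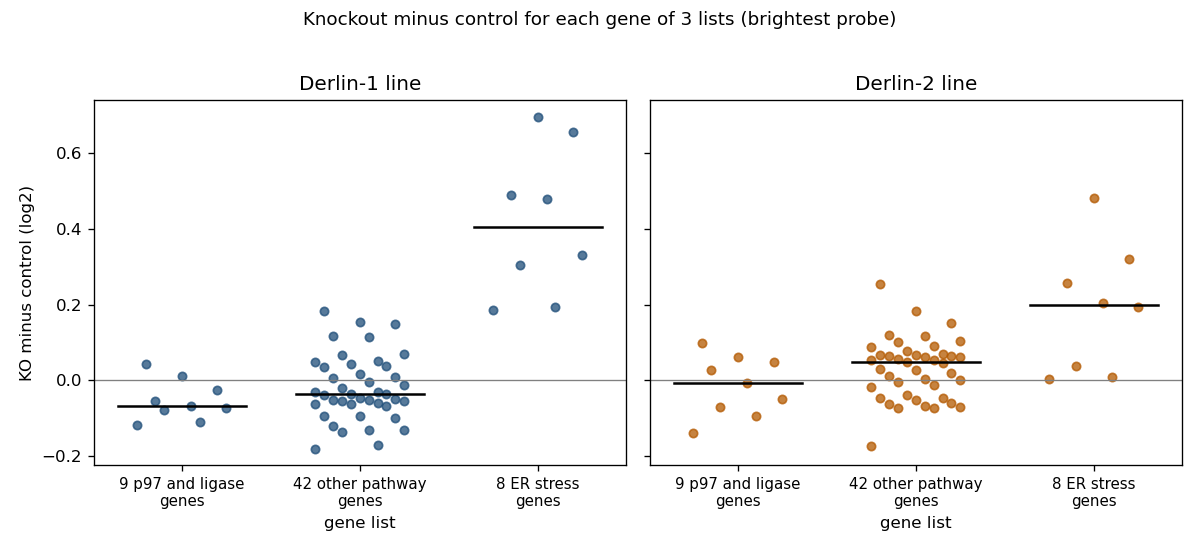
Difference of KO and control in log2 units for each gene, by its brightest probe, in the 9 p97 and ligase genes, the 42 other genes of the pathway and the 8 ER stress genes, for the Derlin-1 line (left) and the Derlin-2 line (right); points are genes and bars are list medians. The bars of the 9 genes stand at −0.07 and −0.0066 and those of the ER stress genes at 0.40 and 0.20.

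The genes whose levels moved most like Vcp across the arrays were sought among 17958 genes by Pearson's r over the 8 arrays, after the mean of each line was taken away. They were 4930544I03Rik (0.981), Cby1 (0.975), Pja2 (0.974), Myl12b (0.974) and Abat (0.967). Among the other 8 genes of the set, Nploc4 came closest to Vcp (0.766), and the rest lay between −0.40 and 0.0090. Cby1, for example, read 9.50 and 9.66 in the Derlin-1 controls, 9.27 and 9.40 in KO, 9.42 and 9.59 in the Derlin-2 controls and 9.48 and 9.34 in KO. These are descriptions over 8 arrays that share normalization and slides, and the highest of so many values of r is high by choice.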

How the data were processed

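Total RNA (150 ng per sample) was labelled with Cy3 and hybridised to Agilent mouse arrays. The scanner files hold intensities as deposited, which per the file headers and labels were made by Agilent Feature Extraction 10.7.1.1, with its background subtraction and flags; only the processed signal was used in the main fit. The authors also deposited normalized log2 values, with gene symbols and their own fold changes. Their methods name quantile normalization in GeneSpring with a baseline shift to the median. At the Vcp and Nploc4 probes, however, the deposited differences followed those under 75th percentile scaling, lower by a near-constant amount in each line. For Derlin-1 they were −0.087 against −0.067 at Vcp A_51_P109766 and 0.383 against 0.403 at Nploc4 A_66_P121794. These 2 settings are thus not separate alternatives. The symbols were joined by probe name, the log2 values served as an alternative, and the fold changes were not used.

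Processed signals were floored at 1, log2-transformed and quantile-normalized, spots flagged as outliers were left out, and the 300 probes printed 10 times were averaged. Of 62976 spots, 3671 were controls. Probes well above background on both arrays of at least 1 group were kept. Differences were fitted with limma 3.58.1 in R 4.3.3 as 4 group means over 8 arrays (4 residual and 2.07 prior degrees of freedom), with Benjamini-Hochberg adjustment over all probes at 0.05. The samples were grouped by title, since the KO samples' genotype label gives only the floxed allele. The fit was tested on simulated data.

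The members and lists were chosen with earlier results of these data known. In the text, the members are named in full, the 42 further genes by the 5 smallest p in each line, and the ER stress genes by the 2 smallest p. The alternatives were 75th percentile scaling, normexp with an offset of 50, the deposited log2 values, other filters, a replicate block, a robust fit with a trend, a fit per line, a 1.5-fold rule and each array left out. The scanner files used here hold median but no mean spot signal, so normexp was run on the median signal. Protein and probe sequences were not used here. With few arrays, precision is limited by their number.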

Additional observations from a re-analysis of the deposited data

How the results depend on the processing

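No setting brought a member probe or a gene of the wider list past the threshold in either line, including each array left out, and the lowest adjusted p of a member was 0.289. Among the 18 differences of the brightest probes, 6 of 158 values under other settings and 11 of 72 with an array left out changed sign; for the dimmer probes it was 5 of 131 and 15 of 60. The cause of each change was not tested. Signs turned under 75th percentile scaling for Rnf5 (0.016) and Ube2j2 A_66_P111437 (0.018) for Derlin-2 and Ube2j1 A_55_P1990608 (0.058) for Derlin-1. They turned under normexp correction for Vcp A_55_P2714569 (0.015) and Ube2j1 A_55_P1990609 (−0.0018) in the Derlin-2 line and for Faf2 A_55_P2731941 (−0.027) and Ube2j1 A_55_P1990608 (0.0076) in the Derlin-1 line. In the deposited values they turned for Faf2 A_55_P2182016 (−0.0078) and Ube2j1 A_55_P1990608 (0.038) for Derlin-1 and for Rnf5 (0.010) and Ube2j2 A_66_P111437 (0.013) for Derlin-2.

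Among the probes whose sign turned with an array left out, the Derlin-1 difference ran from −0.29 to 0.077 for Vcp A_52_P120424, −0.068 to 0.16 for Vcp A_55_P2714569, −0.022 to 0.047 for Faf2 A_55_P2182016, −0.018 to 0.12 for Faf2 A_55_P2731941, −0.0097 to 0.097 for Ubxn4, −0.11 to 0.0054 for Rnf5, −0.071 to 0.022 and −0.13 to 0.062 for the brighter and dimmer Ube2j1 probe, and −0.18 to 0.024 and −0.29 to 0.074 for those of Ube2j2. The Derlin-2 difference ran from −0.084 to 0.31 for Vcp A_52_P120424, −0.19 to 0.11 for Vcp A_55_P2714569, −0.22 to 0.034 for Nploc4 A_55_P2164111, −0.053 to 0.15 for Faf2 A_55_P2182016, −0.097 to 0.049 for Faf2 A_55_P2857044, −0.091 to 0.078 for Rnf5, −0.056 to 0.11 and −0.084 to 0.028 for the Ube2j1 probes, and −0.15 to 0.065 for Ube2j2 A_51_P416919. The median of the 9 genes ran from −0.071 to 0.0054 for Derlin-1, positive without Derlin-1 control 1, and from −0.056 to 0.030 in the Derlin-2 line, positive without Derlin-2 control 1 and, at 0.0051, without Derlin-2 KO 2; it was also positive under 75th percentile scaling (0.018) and in the deposited values (0.013). The median of the wider list ran from −0.078 to 0.022 for Derlin-1, positive without Derlin-1 control 1, and from 0.014 to 0.056 in the Derlin-2 line, where it was 0.027 under normexp correction and 0.022 as a mean over all probes of a gene.

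Over all probes, 0 passed for Derlin-1, 0 to 1 with an array left out (1 without Derlin-1 control 2), and 1875 reached 1.5-fold. For Derlin-2, 18 passed. The count was 2 under normexp correction, 29 with no filter, 2 with all 8 arrays required above background, 3 in the robust fit with a trend, 4 without the last eighth of the rows, 0 in the fit on that line alone and 4 to 54 with an array left out (54 and 45 without Derlin-2 control 1 and 2), and 2265 reached 1.5-fold. For the difference of the lines 3 passed, 5 under 75th percentile scaling, 0 under normexp correction, with no filter, with all 8 arrays required, in the robust fit and without the last rows, and 0 to 20 with an array left out (20 and 18 without Derlin-2 control 1 and 2). With the replicate number as a block, the counts were 0 for Derlin-1, 0 for Derlin-2 and 0 for their difference. Deviations of samples with the same number correlated at 0.268 for Derlin-1 and −0.098 for Derlin-2. The labels tie no animal, litter or batch to a number, and whether samples of the same number shared one is not settled by these 2 values.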
